A study of Mus musculus with 8 samples.

Results

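The 10 core circadian clock genes Arntl (also called Bmal1), Clock, Npas2, Per1, Per2, Per3, Cry1, Cry2, Nr1d1 and Dbp were followed across 8 RNA sequencing libraries of mouse heart. They were chosen by name, by matching each symbol to its gene identifier in the GRCm38 annotation, with earlier results of these data known. All 10 were found among the 55487 identifiers of the count table, and all 10 were among the 17636 genes left after a filter on low counts. The hearts came from mice with a global knockout of Set7 (Set7KO), bred from heterozygous parents, and from wild type (WT) mice. The Setd7 gene encodes Set7, an enzyme that methylates lysines of histone H3 and of other proteins. For 14 consecutive days the mice of both genotypes received either isoproterenol, a beta-adrenergic agonist that provokes cardiac hypertrophy and fibrosis, subcutaneously at 60 mg/kg, or saline. The 4 groups were Set7KO given isoproterenol, WT given isoproterenol, Set7KO given saline and WT given saline, with 2 libraries each. The sources used here give no strain, sex, age or clock time of tissue collection. They do not say that the libraries of a group came from separate animals, so a p-value here measures only how far these samples spread, which may be technical.

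The mammalian clock is a feedback loop of transcription that runs in most cells, cardiac muscle included. ARNTL pairs with CLOCK or NPAS2 and activates genes that carry E-box elements, among them the Per and Cry genes, Nr1d1 and Dbp. PER and CRY proteins then repress that activation, and NR1D1 represses Arntl through ROR elements (ROREs), which ROR receptors use to activate it. DBP is a transcription factor that acts on D-box elements in Per genes and in many output genes. In mouse heart, as in other peripheral tissues, transcripts of Arntl and Npas2 peak at the opposite phase of the day to those of Nr1d1, Dbp and the Per genes, whereas Clock varies little over the day.

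The letters of these elements were looked for in the promoter sequences. RefSeq windows on GRCm38.p6, from 250 bases before to 50 bases after each start, were at hand for 9 of the 10 genes (13 windows, some genes having several starts). Per2 had no window. Each window was searched on both strands for the E-box CACGTG, the D-box TTATGNAA and the RORE core TAGGTCA. Sites are written 5′ to 3′ on the strand of the gene, with the motif in capitals and its first base placed relative to the start, and are shown because their letters match elements named above. A match is a description, and no binding was measured.
Arntl RORE core, chr7:113207532-113207556, plus strand, position 31: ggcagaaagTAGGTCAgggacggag
Per1 E-box, chr11:69098774-69098797, plus strand, position -166: acccaagtcCACGTGcagggatgt
Per1 D-box, chr11:69098916-69098941, plus strand, position -24: ggcctggcaTTATGCAAcccgcctcc
Per3 D-box, chr4:151044854-151044879, minus strand, position -205: acccgcgcgTTATGTAAggtactcgg
Per3 D-box, chr4:151044807-151044832, minus strand, position -158: cgcccgcggTTATGTAAcccccgccg
Cry1 E-box, chr10:85185100-85185123, minus strand, position -60: gccggtggtCACGTGgggtgcatg
The Arntl site lies in the first exon and the other 5 lie upstream of their starts. The windows of Clock, Npas2, Cry2, Nr1d1 and Dbp held none of the 3 motifs, which says only that these letters are not in those windows. Of all 32851 windows of this length, 7.15% held the E-box, 3.38% the D-box and 2.61% the RORE core, with no overlap between the motifs in the windows shown. The 250 bases before the start of Per3, chr4:151044666-151044915 on the minus strand, hold both of its D-boxes (capitals) and overlap no annotated exon.
Per3 upstream: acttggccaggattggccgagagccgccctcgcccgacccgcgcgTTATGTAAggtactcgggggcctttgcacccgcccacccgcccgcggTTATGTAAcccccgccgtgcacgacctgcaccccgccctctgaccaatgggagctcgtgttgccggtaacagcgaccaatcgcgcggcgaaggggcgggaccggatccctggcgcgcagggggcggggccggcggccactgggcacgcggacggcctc

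The libraries held between 27847069 and 51705705 counts. Setd7 stood at 3.79 to 5.70 CPM (counts scaled to a common library size) in the 4 Set7KO libraries, against 43.0 to 72.6 CPM in the 4 WT libraries, and so fitted the genotype labels. All CPM values use library sizes scaled by edgeR's TMM factors. Across libraries the level of a gene moved with its GC content: the median deviation of the highest of 5 GC classes minus that of the lowest was -1.08 and -0.78 (log2) in the WT isoproterenol libraries and -0.91 in Set7KO saline replicate 2, against 0.19 to 0.85 in the other 5. This trend touches Clock above all, whose longest transcript has 40.9% GC, the lowest of the 10, whereas Dbp has the highest at 61.6%. The titles carry a running number and a letter whose meaning is not given. The 3 libraries with negative GC values have the numbers 9, 10 and 11. Both Set7KO isoproterenol libraries carry the letter A and both WT isoproterenol libraries D, Set7KO saline replicate 1 carries B, and Set7KO saline replicate 2 shares C with both WT saline libraries, so letter and group cannot be told apart outside C. Log2 fold changes with offsets for GC content and length are given for Clock, and for another named gene where the offsets turn the sign or move the value by over 1.5 times. Cardiomyocyte markers were abundant throughout, their 7 genes summing to between 82018 and 118001 CPM. Arntl, Cry2, Nr1d1 and Dbp share 33, 295, 263 and 539 exonic bases with a gene on the opposite strand (Gm45355, D930015M05Rik, Thra and Sphk2). Whether strand was used in counting is not given. If it was not, reads of these genes cannot be told apart from those of the clock genes there.

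Per kilobase of exon, Dbp had the highest median level over the 8 libraries at 77.1 CPM per kb, followed by Nr1d1 at 55.3. The repressors came next, with Per1 at 13.7, Cry2 at 8.96, Per2 at 5.37, Per3 at 4.05 and Cry1 at 2.45 CPM per kb. The 3 activators were the lowest, with Npas2 at 0.51, Clock at 0.36 and Arntl at 0.33 CPM per kb. Ranges over libraries were wide enough that neighbours in this order crossed. Arntl ran from 0.12 to 2.40 CPM per kb and Clock from 0.17 to 0.84, and Per2 (0.46 to 8.50) and Per3 (0.42 to 6.48) covered almost the same range.

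Arntl, the obligate partner in the activating complex, took a low and a high level. It stood at 2.38 and 1.13 CPM in the Set7KO isoproterenol libraries and at 1.45 and 2.54 CPM in the WT isoproterenol libraries, against 15.5 and 6.38 CPM in the Set7KO saline libraries and, in WT saline, 0.90 and 18.0 CPM. All 4 isoproterenol libraries were low, 3 of the 4 saline libraries were high, and WT saline replicate 1 was the lowest of all, so the treatments overlap. That lowest value rests on 24 counts, with an exact 95% Poisson interval of 0.57 to 1.33 CPM for counting error only, far from the 16.5 to 19.6 CPM of its fellow replicate. The span from lowest to highest library was 20.1-fold.

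Npas2, the second partner of ARNTL beside CLOCK, took the same pattern at lower amplitude. Its level was 1.99 and 2.09 CPM in Set7KO isoproterenol, 1.79 and 2.83 CPM in WT isoproterenol, 10.3 and 3.09 CPM in Set7KO saline and 1.64 and 9.55 CPM in WT saline libraries. Set7KO saline replicate 1 and WT saline replicate 2 stood apart above the other 6, and the treatments again overlap. Clock itself did not share this pattern. It stood at 3.52 and 2.60 CPM in Set7KO isoproterenol, 7.99 and 8.57 CPM in WT isoproterenol, 6.34 and 11.5 CPM in Set7KO saline and 2.43 and 2.29 CPM in WT saline libraries. Its 3 highest values fell in the 3 libraries with a negative GC value, and with GC and length offsets its 8 values lay between 1.71 and 2.93 on the log2 CPM scale.

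**Figure D1:**
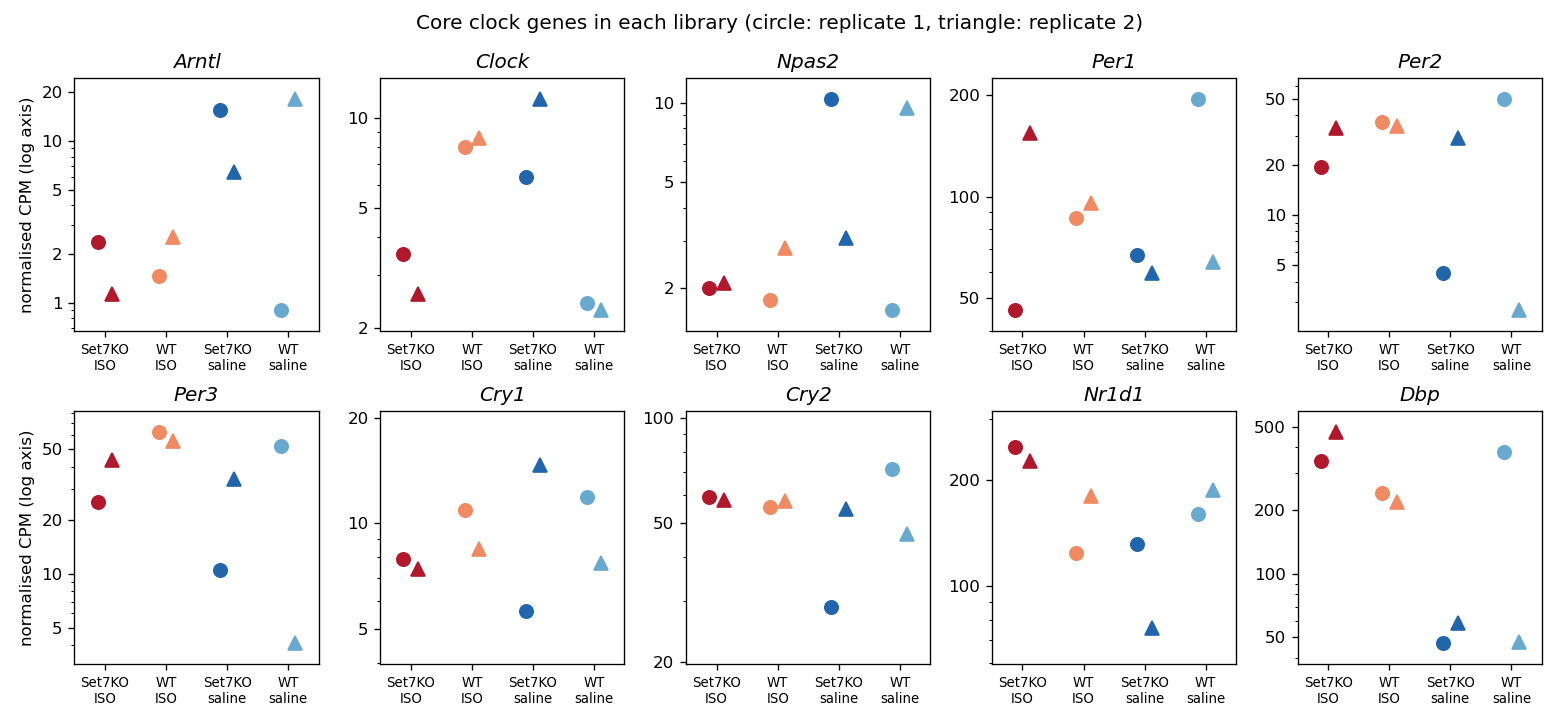
Normalised CPM (log axis, range differing by panel) of each of the 10 clock genes in each library, by group, with circles for replicate 1 and triangles for replicate 2; no averages are drawn. Arntl and Npas2 are high in Set7KO saline replicate 1 and WT saline replicate 2, where Per2 and Per3 are lowest, and Dbp is low in 3 saline libraries (46.8 to 58.3 CPM) but at 378 CPM in WT saline replicate 1.

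Among the repressors, Per2 and Per3 showed the mirror image of Arntl. Per2 stood at 19.5 and 33.6 CPM in Set7KO isoproterenol, 36.5 and 34.5 CPM in WT isoproterenol, 4.49 and 29.3 CPM in Set7KO saline and 49.8 and 2.68 CPM in WT saline libraries. Per3 stood at 25.3 and 43.6 CPM in Set7KO isoproterenol, 62.2 and 55.6 CPM in WT isoproterenol, 10.5 and 34.1 CPM in Set7KO saline and 52.03 and 4.08 CPM in WT saline libraries. Both were lowest in WT saline replicate 2 and next lowest in Set7KO saline replicate 1, the libraries with the most Arntl and Npas2. Their lowest and highest libraries were 18.5-fold and 15.3-fold apart.

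Per1, which also answers to cAMP and glucocorticoid signals, was less regular. It stood at 46.1 and 154 CPM in Set7KO isoproterenol, 86.4 and 96.0 CPM in WT isoproterenol, 67.4 and 59.4 CPM in Set7KO saline and 194 and 64.1 CPM in WT saline libraries. WT saline replicate 1 was the highest and Set7KO isoproterenol replicate 1 the lowest, so the saline range enclosed all but the lowest isoproterenol value. The cryptochromes, the repressors that bind the activating complex directly, moved least. Cry1 lay between 7.43 and 10.9 CPM in the isoproterenol libraries and between 5.62 and 14.7 CPM in the saline libraries. Cry2 lay between 55.5 and 59.3 CPM in the isoproterenol libraries and between 28.8 and 71.4 CPM in the saline libraries, so that for both the isoproterenol values fell inside the saline range. The lowest Cry1 and Cry2 values were both in Set7KO saline replicate 1.

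Nr1d1, the nuclear receptor that represses Arntl, spanned 3.29-fold. Its level was 248 and 227 CPM in Set7KO isoproterenol, 124 and 180 CPM in WT isoproterenol, 132 and 75.5 CPM in Set7KO saline and 160 and 187 CPM in WT saline libraries. Both Set7KO isoproterenol libraries were above all others, the Set7KO saline pair lay below them, and the WT groups overlap. It did not follow Dbp between the WT saline replicates, where the 2 values differed 1.17-fold. Dbp, the D-box activator and the most abundant of the 10 per length, stood at 342 and 469 CPM in Set7KO isoproterenol, 243 and 219 CPM in WT isoproterenol, 46.8 and 58.3 CPM in Set7KO saline and 378 and 47.6 CPM in WT saline libraries. Every isoproterenol library was above 3 of the 4 saline libraries, and WT saline replicate 1 was among the highest.

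Set beside each other, Arntl and Dbp sorted the libraries into a set of 5 and a set of 3. The difference of log2 Dbp minus log2 Arntl was 7.13 and 8.62 in Set7KO isoproterenol, 7.33 and 6.40 in WT isoproterenol, 1.59 and 3.18 in Set7KO saline and 8.63 and 1.40 in WT saline libraries. With GC and length offsets the set of 5 spanned 6.94 to 8.12 and the set of 3 spanned 1.06 to 3.74. WT saline replicate 1 thus sat with the isoproterenol libraries, and its fellow replicate with the Set7KO saline libraries. Set7KO saline replicate 2 was the least clear member of its set: its Arntl was between the extremes and its Dbp low, but its Per2 and Per3 were within the range of the isoproterenol libraries. The time of collection is not given, and its part in these values was not tested. Because tissue was sequenced in bulk, fewer cells of a type and less RNA per cell cannot be told apart.

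**Figure D2:**
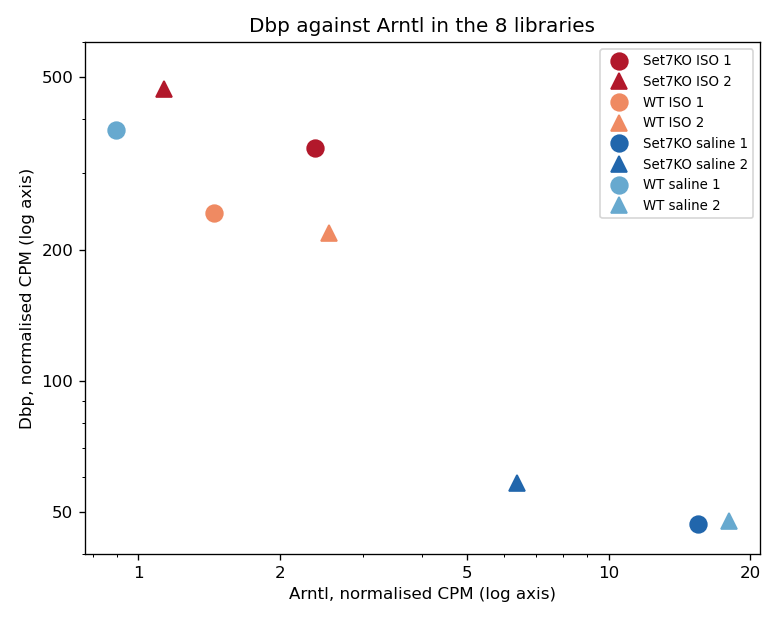
Dbp against Arntl in normalised CPM (both axes log), 1 point per library, coloured by group, with circles for replicate 1 and triangles for replicate 2. The 4 isoproterenol libraries and WT saline replicate 1 lie at the upper left (Arntl 0.90 to 2.54 CPM), and the other 3 saline libraries at the lower right (Arntl 6.38 to 18.0 CPM).

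The spread between replicates of saline-treated hearts was large for these genes. In the WT saline pair, 6 of the 10 clock genes differed by more than 2-fold, where 11.5% of all tested genes did. The absolute log2 difference was 4.25 for Arntl, 4.18 for Per2, 3.66 for Per3, 2.99 for Dbp and 2.50 for Npas2, each above the 95th percentile of all tested genes (97.9 to 99.7). The median over the 10 was 2.05, beside 0.32 over all genes tested. In the Set7KO saline pair 5 of the 10 differed by more than 2-fold, beside 20.9% of all genes, with Per2 at 2.69 as the widest. In the Set7KO isoproterenol pair 2 of the 10 did, Arntl at 1.03 and Per1 at 1.74, beside 8.56% of all genes. None of the 10 did in the WT isoproterenol pair, beside 3.80% of all genes. Over all 8 libraries Arntl, Per2, Per3 and Dbp had an SD of log2 CPM (1.64, 1.54, 1.37 and 1.42) above the 95th percentile of the genes tested, whereas Cry1 and Cry2 lay near the middle at the 54.6th and 45.7th.

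**Figure D3:**
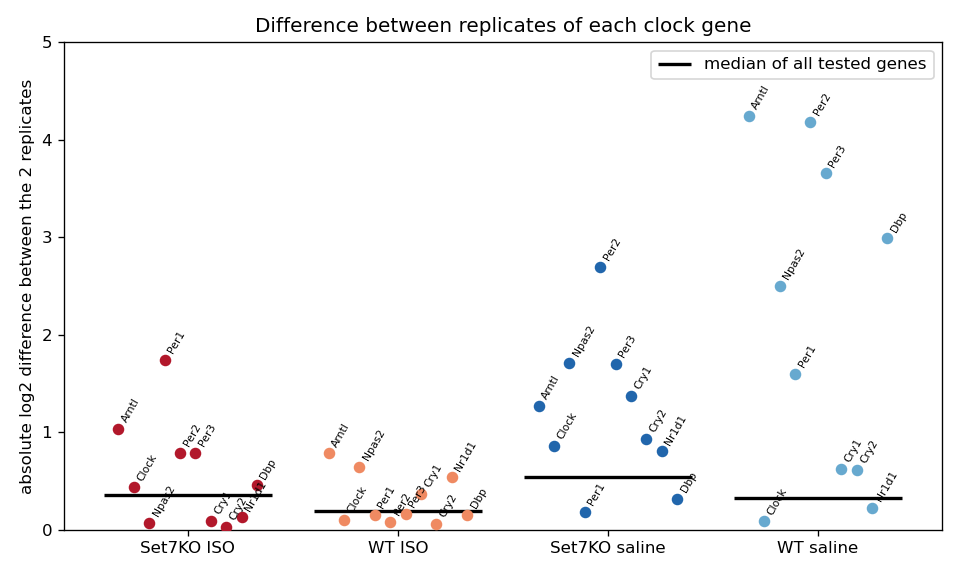
Absolute log2 difference between the 2 replicates of each group for each of the 10 clock genes (points), with the median of all 17636 tested genes as a black bar. The WT saline pair stands out with Arntl, Per2 and Per3 between 3.66 and 4.25, whereas in the WT isoproterenol pair the widest is Arntl at 0.78.

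Other features of these libraries moved too. In WT saline replicate 1 the 4 atrial markers Myl7, Sln, Myl4 and Nppa summed to 2624 CPM, against 205 to 805 CPM in the other 7 libraries, with Myl7, the atrial myosin light chain, at 445 CPM against 0.39 to 97.0 CPM. Set7KO isoproterenol replicate 2 had Myl7 at 0.88 CPM, Myl4 at 4.79 CPM, Sln at 0 counts and Nppa at 231 CPM. The part of atrial tissue in the clock values was not tested. In Set7KO saline replicate 2 the 5 erythroid markers summed to 10510 CPM, against 1253 to 4348 CPM elsewhere, and the 4 neutrophil markers to 85.3 CPM, against 3.28 to 11.7 CPM, with Ly6g, a defining neutrophil gene, at 0 in the other 7. The part of blood or neutrophil RNA in the clock values of that library was not tested.

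The first comparison asked whether isoproterenol shifts the clock genes, averaged over both genotypes. None of the 10 passed at an adjusted p under 0.05 in edgeR's quasi-likelihood test, which called 0.051% of all genes (9 of 17636). At an unadjusted p under 0.05 edgeR listed 4 of the 10 (Dbp and Nr1d1 with a positive and Arntl and Npas2 with a negative fold change), beside 9.4% of all genes. limma-voom called 0 of the 10 and 0.0794% of all genes, and DESeq2 called 0 of the 10 and 1.42% of all genes. For none of the 10 did the isoproterenol and saline libraries fail to overlap, beside 4.13% of all genes.

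Arntl averaged 1.88 ± 0.69 CPM after isoproterenol and 10.2 ± 7.96 CPM after saline (SD, n = 4 each), a log2 fold change of -2.44 ± 0.77 (SE) with an adjusted p of 0.361 in edgeR. Npas2 averaged 2.17 ± 0.45 CPM after isoproterenol and 6.14 ± 4.40 CPM after saline, a log2 fold change of -1.49 ± 0.56 with an adjusted p of 0.452. In both the saline SD was several times the isoproterenol SD. Dbp averaged 318 ± 114 CPM after isoproterenol and 133 ± 164 CPM after saline, a log2 fold change of 1.53 ± 0.52 with an adjusted p of 0.391. Nr1d1 averaged 195 ± 55.2 CPM after isoproterenol and 139 ± 47.7 CPM after saline, a log2 fold change of 0.50 ± 0.22 with an adjusted p of 0.517. The other 6 had log2 fold changes between -0.21 (Cry1) and 0.85 (Per3), each with an unadjusted p of 0.237 or more. Among them Clock had 0.13 ± 0.24 (0.853), or -0.21 ± 0.15 (0.699) with offsets. The 10 had a median log2 fold change of 0.17, beside 0.02 over all genes, with 7 positive and 3 negative.

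Both WT saline libraries steered these values, in opposite ways. Without WT saline replicate 1 the averaged log2 fold change of Dbp was 2.61 ± 0.22 (edgeR adjusted p = 0.0526), that of Per3 2.24 ± 0.47 (0.229), that of Per2 2.18 ± 0.65 (0.333) and that of Arntl -2.90 ± 0.42 (0.148). Without WT saline replicate 2 the values were 1.10 ± 0.20 (0.344) for Dbp, 0.38 ± 0.42 (0.843) for Per3, 0.06 ± 0.58 (0.99) for Per2 and -0.76 ± 0.46 (0.784) for Arntl. For these 4 genes no adjusted p went below 0.05 either way, but the log2 fold change of each of the 4 differed by more than 2 times according to which of these libraries was kept.

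Within Set7KO hearts isoproterenol was compared with saline. edgeR called 0 of the 10 and 0% of all genes, and listed 4 at an unadjusted p under 0.05 (Dbp and Nr1d1 with a positive and Arntl and Clock with a negative fold change), beside 9.66% of all genes. limma-voom called 0 of the 10 and 0% of all genes, and DESeq2 called Nr1d1, with a positive fold change, and Clock, with a negative one, beside 0.584% of all genes. Dbp averaged 406 CPM after isoproterenol and 52.6 CPM after saline, a log2 fold change of 2.95 ± 0.77 (edgeR adjusted p = 0.465). For Nr1d1 the averages were 238 CPM after isoproterenol and 104 CPM after saline, a log2 fold change of 1.20 ± 0.31 (edgeR adjusted p = 0.465, DESeq2 adjusted p = 0.041). Arntl had a log2 fold change of -2.62 ± 1.10 (0.513) and Clock one of -1.54 ± 0.35 (0.369), or -0.85 ± 0.22 with offsets for GC content and length. Without Set7KO saline replicate 1 the log2 fold change was 1.66 ± 0.31 for Nr1d1 and -1.91 ± 0.29 for Clock, both without offsets. Without Set7KO saline replicate 2 it was smaller for both, at 0.86 ± 0.28 for Nr1d1 and -1.04 ± 0.30 for Clock. Each of these fits leaves 1 library in the Set7KO saline group.

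Within WT hearts edgeR called 0 of the 10 and 0% of all genes, and listed 1, Clock, at an unadjusted p under 0.05, beside 31.7% of all genes. limma-voom called 0 of the 10 and 0% of all genes, and DESeq2 called Clock, beside 18% of the genes it tested. Clock averaged 8.28 CPM after isoproterenol and 2.36 CPM after saline, a log2 fold change of 1.81 ± 0.35 (edgeR adjusted p = 0.0941). With offsets for GC content and length it was 0.44 ± 0.22 (0.359), and both WT isoproterenol libraries carried the low GC trend. Arntl had a log2 fold change of -2.25 ± 1.08 (0.185), which became -3.18 ± 0.63 without WT saline replicate 1 and 1.11 ± 0.75 without WT saline replicate 2. For Dbp it was 0.12 ± 0.72 (0.921), or 0.79 ± 0.74 with offsets. Without offsets it became 2.27 ± 0.33 without WT saline replicate 1 and -0.75 ± 0.29 without WT saline replicate 2. The sign for Arntl and Dbp in WT was thus set by which saline library was kept.

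**Figure D4:**
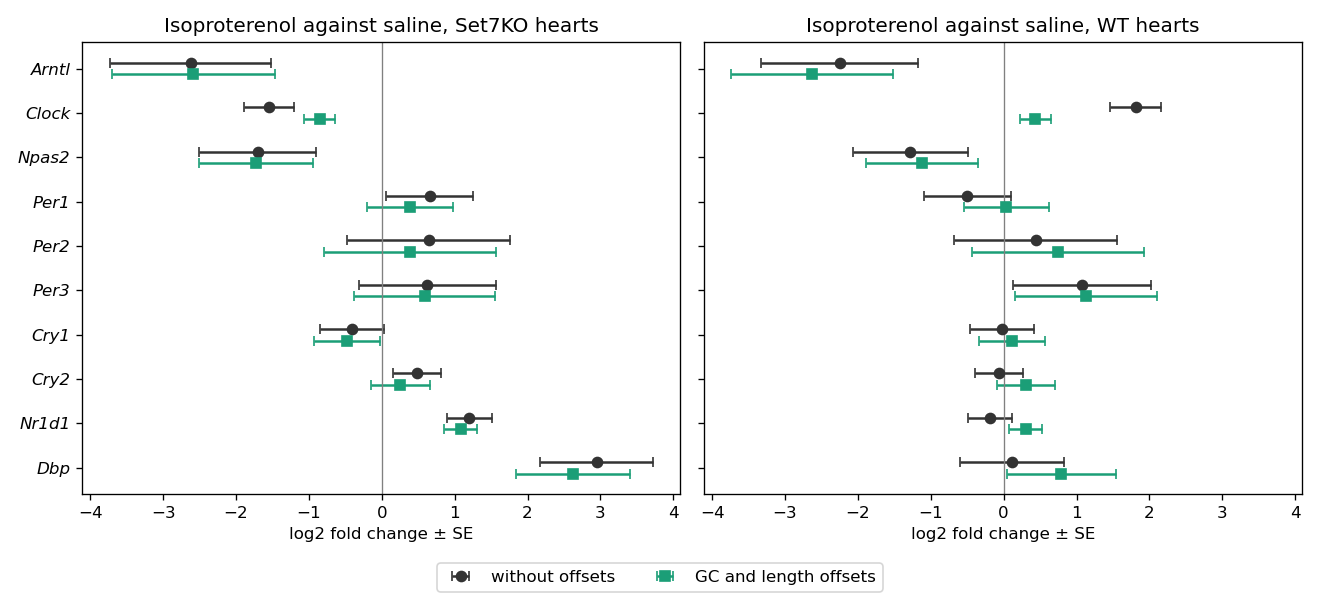
Log2 fold change (± SE from edgeR) of isoproterenol against saline for each clock gene in Set7KO hearts (left) and WT hearts (right), without offsets (black circles) and with GC and length offsets (green squares). Arntl and Npas2 lie below 0 in both genotypes, Dbp reads 2.95 in Set7KO and 0.12 in WT, and Clock lies on opposite sides of 0 and moves towards 0 with offsets.

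Loss of Set7 was then examined at each treatment. After saline, edgeR called 0 of the 10 and 0.00567% of all genes, and listed 3 at an unadjusted p under 0.05 (Clock with a positive and Nr1d1 and Dbp with a negative fold change), beside 10.3% of all genes. limma-voom called 0 of the 10 and 0.00567% of all genes, and DESeq2 called Clock, beside 0.102% of all genes. Clock averaged 8.93 CPM in Set7KO and 2.36 CPM in WT, a log2 fold change of 1.92 ± 0.35 (edgeR adjusted p = 0.483), or 1.05 ± 0.22 with offsets for GC content and length. Dbp averaged 52.6 CPM in Set7KO and 213 CPM in WT, a log2 fold change of -2.02 ± 0.74 (0.483), the WT average being made of the values 378 and 47.6 CPM. Arntl averaged 10.9 CPM in Set7KO and 9.46 CPM in WT, a log2 fold change of 0.20 ± 1.02 (0.94), so that a difference of several-fold either way was within its error.

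After isoproterenol, where all 4 libraries shared the low Arntl, high Dbp state, edgeR called 0 of the 10 and 0.00567% of all genes and listed 1, Clock with a negative fold change, at an unadjusted p under 0.05, beside 19.9% of all genes. limma-voom called 0 of the 10 and 0.00567% of all genes, and DESeq2 called Clock, beside 1.83% of the genes it tested. The log2 fold change of Clock was -1.43 ± 0.34 (edgeR adjusted p = 0.229), and -0.24 ± 0.21 (0.753) with offsets for GC content and length. Arntl averaged 1.76 CPM in Set7KO and 2.00 CPM in WT, a log2 fold change of -0.17 ± 1.08 (0.937), or 0.19 ± 1.12 with offsets. Dbp averaged 406 CPM in Set7KO and 231 CPM in WT, a log2 fold change of 0.81 ± 0.72 (0.493), or 0.32 ± 0.74 (0.916) with offsets. Averaged over treatments, edgeR called 0 of the 10 and 0.00567% of all genes, and 0 of the 10 had an unadjusted p under 0.05, beside 1.56% of all genes. limma-voom called 0 of the 10 and 0.00567% of all genes, and DESeq2 called 0 of the 10 and 0.0113% of all genes. The averaged log2 fold changes lay between -0.60 (Dbp) and 0.25 (Clock, 0.40 with offsets).

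The interaction asked whether the isoproterenol effect differed between Set7KO and WT hearts. edgeR called 0 of the 10 and 0% of all genes, and listed 3 at an unadjusted p under 0.05 (Dbp and Nr1d1 positive, Clock negative), beside 30.6% of all genes. limma-voom called 0 of the 10 and 0% of all genes, and DESeq2 called Nr1d1 (positive) and Clock (negative), beside 14.9% of the genes it tested. Clock had an interaction of -3.36 ± 0.49 on the log2 scale (edgeR adjusted p = 0.0876), which was -1.29 ± 0.31 (0.199) with offsets for GC content and length. For Nr1d1 the interaction was 1.39 ± 0.43 (0.102), or 0.78 ± 0.31 with offsets. The interaction of Dbp was 2.83 ± 1.03 (0.125), or 1.83 ± 1.05 with offsets (unadjusted p = 0.122, adjusted p = 0.44), and rests on the split WT saline pair. That of Arntl was -0.37 ± 1.49 (0.879), or 0.04 ± 1.503 with offsets.

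The other genes of the clock were taken from a list of 18 modifiers, all of which were tested. None of the 18 passed in edgeR or limma-voom in any of the 7 contrasts. DESeq2 called 3 for isoproterenol in WT and 3 in the interaction, Nr1d2 and Rora among them, 2 for Set7KO against WT after isoproterenol, Rora among them, and 0 in the other 4 contrasts. Of all genes DESeq2 tested it called 18% for isoproterenol in WT, 14.9% in the interaction and 1.83% for Set7KO against WT after isoproterenol, so the WT and interaction counts are no result about the list. In the last of these contrasts the edgeR log2 fold change of Rora was -1.88, or -0.69 with offsets. The edgeR interaction was -3.22 for Nr1d2, or -1.48 with offsets, and -3.35 for Rora, or -1.18 with offsets. For isoproterenol averaged over genotypes 4 of the 18 were higher and 1 lower at an unadjusted edgeR p under 0.05, beside 9.4% of all genes, with a median log2 fold change of 0.22 beside 0.02 over all genes. Ciart, a repressor of the CLOCK and ARNTL complex, repeated the pattern of Dbp. It stood at 15.3 and 25.0 CPM in Set7KO isoproterenol, 18.5 and 17.3 CPM in WT isoproterenol, 2.60 and 5.80 CPM in Set7KO saline and 26.1 and 1.62 CPM in WT saline libraries. Nfil3, the repressor that competes with DBP at D-boxes, showed the reverse. Its level was 10.8 and 10.2 CPM in Set7KO isoproterenol, 9.55 and 8.63 CPM in WT isoproterenol, 21.2 and 21.2 CPM in Set7KO saline and 9.37 and 21.8 CPM in WT saline libraries. It was thus high in the 3 saline libraries with low Dbp (log2 fold change -0.89 ± 0.26, edgeR adjusted p = 0.321). Bhlhe40, a repressor at E-boxes, lay between 56.2 and 104 CPM after isoproterenol and between 34.7 and 58.1 CPM after saline (log2 fold change 0.70 ± 0.23, edgeR adjusted p = 0.373). Its paralog Bhlhe41 lay between 23.5 and 34.8 CPM after isoproterenol and between 13.2 and 28.6 CPM after saline (0.63 ± 0.24, adjusted p = 0.456). Rorb, a ROR receptor, lay at most at 0.84 CPM in any library (1.23 ± 0.36, adjusted p = 0.321). Within Set7KO the log2 fold changes were 0.93 for Bhlhe40, 0.94 for Bhlhe41 and -1.01 for Nfil3, each with an unadjusted edgeR p of 0.0235 or less and none passing.

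Nr1d2, the paralog of Nr1d1, and Rora, the receptor that activates Arntl, took another pattern. Nr1d2 stood at 11.8 and 10.2 CPM in Set7KO isoproterenol, 43.2 and 41.0 CPM in WT isoproterenol, 6.92 and 29.7 CPM in Set7KO saline and 12.2 and 2.95 CPM in WT saline libraries. Both genes were highest in the 3 libraries with a negative GC value. In WT the isoproterenol log2 fold change was 2.48 for Nr1d2 and 2.16 for Rora, against 1.45 and 0.83 with offsets, none of them passing the threshold in edgeR. Csnk1d and Csnk1e, the kinases that mark PER proteins for degradation, varied little, Csnk1d between 76.8 and 105 CPM and Csnk1e between 44.5 and 62.0 CPM over the 8 libraries.

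Of 14 clock output genes, all tested, none passed in edgeR or limma-voom in any of the 7 contrasts. DESeq2 called Ucp3 and Pdk4 for isoproterenol averaged over genotypes and in Set7KO, Ucp3 and Nampt in WT, and Por and Nampt in the interaction. Of all genes it tested, DESeq2 called 1.42%, 0.584%, 18% and 14.9% for the averaged, Set7KO, WT and interaction contrasts. In WT the edgeR log2 fold change of Nampt was 1.85, or 0.64 with offsets. The edgeR interaction was -3.03 for Nampt, or -1.003 with offsets, and 1.13 for Por, or 0.38 with offsets. Nampt lay between 79.8 and 96.9 CPM in the 3 libraries with a negative GC value, against 17.3 to 32.4 CPM elsewhere. For isoproterenol averaged over genotypes 1 was higher and 3 lower at an unadjusted edgeR p under 0.05, beside 9.4% of all genes, with a median log2 fold change of 0.26 beside 0.02 over all genes. Tef and Hlf, the relatives of Dbp in the PAR bZIP family, were lowest in Set7KO saline replicate 1 and WT saline replicate 2. Tef stood at 345 and 335 CPM in Set7KO isoproterenol, 360 and 380 CPM in WT isoproterenol, 93.2 and 306 CPM in Set7KO saline and 359 and 143 CPM in WT saline libraries. Wee1, the cell cycle kinase under E-box control, was likewise at 2.60 and 3.25 CPM in those 2 libraries, against 8.74 to 16.2 CPM in the other 6. In Set7KO saline replicate 2, where Dbp was low, Tef stood at 306 CPM and Wee1 at 9.81 CPM.

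Ucp3 and Pdk4, metabolic genes listed among the outputs, took another pattern, and neither passed in edgeR or limma-voom. Ucp3, the muscle uncoupling protein, lay between 13.3 and 18.4 CPM after isoproterenol and between 43.1 and 104 CPM after saline. The treatments did not overlap, which held for 4.13% of all genes. Its log2 fold change was -2.03 ± 0.28 (edgeR adjusted p = 0.0769). Pdk4, the kinase that inhibits pyruvate dehydrogenase, lay between 63.4 and 76.9 CPM after isoproterenol and between 132 and 844 CPM after saline (log2 fold change -2.04 ± 0.48, adjusted p = 0.217). WT saline replicate 1 sat with the other saline libraries for both, at 71.3 CPM of Ucp3 and 149 CPM of Pdk4. Its Arntl, Npas2, Per2, Per3 and Dbp lay outside the range of the other 3 saline libraries, and the cause was not tested. The highest Pdk4 value was in Set7KO saline replicate 2. Kcnip2, a subunit of the cardiac transient outward potassium channel, lay between 198 and 278 CPM after isoproterenol and between 279 and 376 CPM after saline (-0.52 ± 0.17, adjusted p = 0.387). Tspan4, a tetraspanin, lay between 60.2 and 118 CPM after isoproterenol and between 32.6 and 90.4 CPM after saline (0.74 ± 0.29, adjusted p = 0.467), its highest saline value being in WT saline replicate 1.

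**Figure D5:**
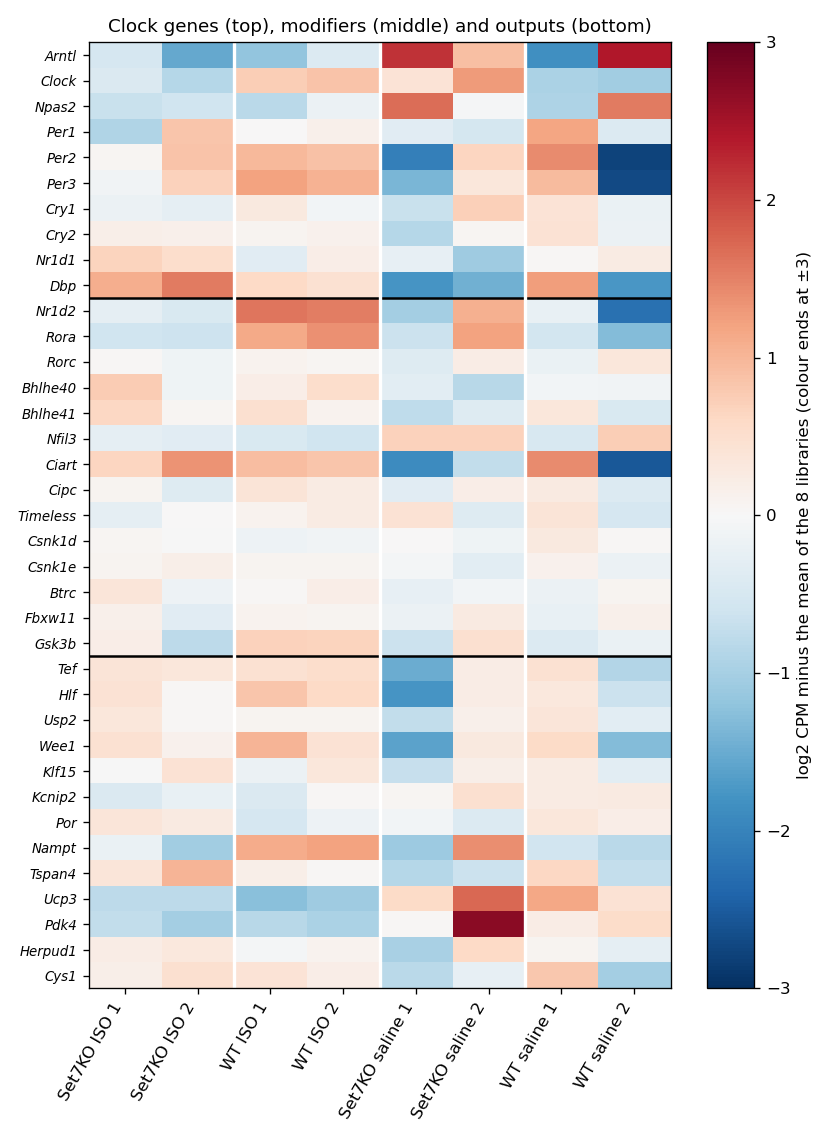
Log2 CPM of each gene minus its mean over the 8 libraries (colour scale from -3 to 3), for the 10 clock genes, 14 of 18 modifiers and 13 of 14 outputs, each with a mean of at least 2 CPM. Columns are the libraries by group; Set7KO saline replicate 1 and WT saline replicate 2 show Arntl and Npas2 above and Per2, Per3, Dbp and Ciart below their means, and WT saline replicate 1 shows the reverse.

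Glucocorticoid-responsive and cAMP-responsive genes, inputs that can reset the clock, were listed beside it. None of the 10 glucocorticoid-responsive genes passed in edgeR or limma-voom in any of the 7 contrasts, and DESeq2 called Sgk1 and Mt2 for isoproterenol averaged over genotypes and in WT, beside 1.42% and 18% of the genes it tested. For isoproterenol averaged over genotypes 1 was higher (Mt2, log2 fold change 1.32 ± 0.27) and 2 were lower (Sgk1, -0.96 ± 0.22, and Cdkn1a, -0.72 ± 0.23) at an unadjusted edgeR p under 0.05, beside 9.4% of all genes. Set7KO saline replicate 2 stood apart in this list, with Fkbp5, a chaperone induced by the glucocorticoid receptor, at 78.6 CPM and Zbtb16 at 151 CPM, against 14.5 to 38.3 CPM and 9.98 to 42.2 CPM in the other 7. Tsc22d3 and Ddit4 were instead highest in WT saline replicate 1, at 205 and 110 CPM. They were next highest in Set7KO isoproterenol replicate 2, at 176 and 69.7 CPM. Sgk1 was highest in WT saline replicate 2, at 73.3 CPM. The part of glucocorticoid signals in the clock values was not tested. None of the 10 cAMP and CREB genes passed in edgeR or limma-voom in any contrast either. DESeq2 called Fos and Dusp1 for isoproterenol averaged over genotypes and Crem and Dusp1 in WT, beside the same 1.42% and 18%. In WT the edgeR log2 fold change of Crem was 1.27, or 0.27 with offsets. For isoproterenol averaged over genotypes Crem was higher (0.80 ± 0.24, or 0.50 with offsets) and Fos and Dusp1 were lower (-2.42 ± 0.67 and -1.10 ± 0.30) at an unadjusted edgeR p under 0.05, beside the same 9.4%. Egr1 had a log2 fold change of -1.01 ± 0.44, and Per1, which carries a cAMP response, one of 0.08 ± 0.42, or 0.21 with offsets.

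The genes whose pattern was most like that of Arntl and of Dbp were ranked over the 8 libraries by Pearson's r of log2 CPM, among the 10813 genes with a mean of at least 2 CPM. These r describe 8 libraries that fall into separate sets and that share the GC trend. With Arntl the highest were Leo1 (0.98), Kdr (0.96), Fer1l5 (0.93), Gch1 (0.93) and Fam173b (0.93), and the lowest were Cys1 (-0.99), Mthfd1l (-0.99), Ciart (-0.98), Bmp4 (-0.98) and Fam76a (-0.95). With Dbp the highest were Tspan4 (0.97), Mthfd1l (0.97), Pcolce2 (0.96), Proser2 (0.96) and Kif6 (0.96), and the lowest were Leo1 (-0.96), Fam173b (-0.94), Nfil3 (-0.93), Fer1l5 (-0.92) and Kdr (-0.90). With GC and length offsets in the log2 CPM, r with Arntl was 0.82 for Fer1l5, 0.79 for Fam173b and 0.59 for Gch1, and r with Dbp was 0.68 for Pcolce2, 0.62 for Proser2 and -0.75 for Fam173b. For the other 14 of the 20 pairings r was 0.85 or more in size. Leo1, a subunit of the PAF1 elongation complex, lay between 6.22 and 8.05 CPM after isoproterenol and stood at 16.9 and 11.9 CPM in Set7KO saline and 6.42 and 19.5 CPM in WT saline libraries. Kdr, the endothelial VEGF receptor, lay between 144 and 201 CPM after isoproterenol and stood at 274 and 218 CPM in Set7KO saline and 153 and 292 CPM in WT saline libraries. Mthfd1l, a mitochondrial folate enzyme, lay between 2.89 and 3.81 CPM after isoproterenol and stood at 0.81 and 1.20 CPM in Set7KO saline and 4.63 and 0.76 CPM in WT saline libraries.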

How the data were processed

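Hearts were profiled with a TruSeq stranded mRNA kit and single reads of 75 cycles on an Illumina NextSeq, per the labels' protocols. The deposited values are whole-number counts per gene; GRCm38, StringTie, HISAT2, HISAT and edgeR are named in the submitters' processing notes, with versions and roles not given in the sources used here. GENCODE M21 named 55227 of the 55487 identifiers. edgeR 4.0.16 (R 4.3.3) took the 8 libraries together, with 1 mean per group (TMM, filterByExpr, two-sided quasi-likelihood F-tests, Benjamini-Hochberg over all 17636 genes tested, threshold 0.05, 4 residual degrees of freedom, biological coefficient of variation 28.4%), for 7 contrasts. Standard errors come from the F statistic. Log2 CPM used a prior count of 2. The rule names all 10 clock genes; up to 4 genes of each list with the smallest p where none passes; and the 5 genes most and least correlated with Arntl and with Dbp, leaving out gene models, pseudogenes and ribosomal protein genes. Ciart, Nr1d2, Csnk1d, Csnk1e, Tef, Hlf, Wee1, Fkbp5, Zbtb16 and Tsc22d3 were named for their role after their values were seen. Values of 1 modifier are not reported here. The clock genes and lists were chosen with earlier results of these data known.

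Alternatives were DESeq2 size factors, no filter on low counts, limma-voom (limma 3.58.1), DESeq2 1.42.0, fits on the 2 groups compared, offsets from natural splines of GC content and exonic length (5 degrees of freedom each) and leaving out each library, a group then left with 1 library being assumed to vary like the others. Offsets without Set7KO saline replicate 2 were added after seeing the data. The fit was tested on simulated counts. Intervals cover counting error only.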

Additional observations from a re-analysis of the deposited data

Results flagged for a closer look

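Each of the 10 clock genes was checked over the WT, Set7KO, isoproterenol and saline libraries, giving 40 sets of 4 libraries. Of these sets, 7 held a library far from the other 3 on the CPM scale. The check flags about 1 in 20 groups when 4 independent values come from 1 population. These sets each mix 2 groups and several of the genes move together, so the 7 cannot be set against that rate. Arntl at 18.0 CPM in WT saline replicate 2 stood apart from 0.90 to 2.54 CPM in the other WT libraries, and Npas2 at 9.55 CPM in the same library from 1.64 to 2.83 CPM. Npas2 at 10.3 CPM in Set7KO saline replicate 1 stood apart from 1.99 to 3.09 CPM in the other Set7KO libraries, and Cry2 at 28.8 CPM in that library from 55.0 to 59.3 CPM. Among the saline libraries WT saline replicate 1 stood apart in Per1 at 194 CPM (59.4 to 67.4 CPM in the others) and in Dbp at 378 CPM (46.8 to 58.3 CPM in the others). Per2 at 19.5 CPM in Set7KO isoproterenol replicate 1 lay below the 33.6 to 36.5 CPM of the other isoproterenol libraries. Set7KO saline replicate 1, WT saline replicate 1 and WT saline replicate 2 each account for 2 of the 7. On log2 CPM the same check picks out 6 sets: 4 of these 7 (Per1 and Dbp in saline, Per2 in isoproterenol and Cry2 in Set7KO), without Arntl and Npas2, and also Per2 and Per3 in WT, where WT saline replicate 2 lies below the others.

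The isoproterenol effect on Clock went opposite ways in the genotypes, every Set7KO isoproterenol library lying below and every WT isoproterenol library above its saline libraries. The difference between the effects was -3.36 on the log2 scale, with an edgeR adjusted p of 0.0876, and -1.29 (0.199) with offsets for GC content and length. The GC trend moves with this difference, since both WT isoproterenol libraries, along with Set7KO saline replicate 2, have negative values of it. The remainder after offsets was not tested further.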

How the results depend on the processing

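edgeR called 0 of the 10 clock genes in each of the 7 contrasts, and this count was also 0 with size factors of DESeq2, limma-voom and GC and length offsets, with or without Set7KO saline replicate 2. With no filter on low counts it was 1 for isoproterenol in WT (Clock), 1 in Set7KO (Dbp) and 2 for the interaction (Clock and Dbp). With DESeq2 it was 1 for isoproterenol in WT (Clock), 2 in Set7KO (Clock and Nr1d1), 1 for Set7KO against WT after saline and 1 after isoproterenol (Clock in both) and 2 for the interaction (Clock and Nr1d1). With only the 2 groups compared it was 1 for isoproterenol in WT and 1 for Set7KO against WT after isoproterenol (Clock in both). With a library left out, members were called only in fits without a Set7KO saline library, where that group held 1 library. These calls were for isoproterenol in WT and in Set7KO, for Set7KO against WT after saline and for the interaction. The share of all genes called is not given here for these fits, for no filter or for only the 2 groups compared. Their counts are thus no result about the clock genes. Across 1020 values of single genes under 15 alternatives, 20 passed where the reported value had not, 0 the other way, and 90 changed sign (31 of 460 under other settings, 59 of 560 with a library left out). Of these sign changes 2 had both values beyond their SE. Arntl for isoproterenol in WT ranged from -3.18 to 1.11 with a library left out, and Dbp for Set7KO against WT averaged over treatments from -0.99 to 0.48. The cause was not tested. No paired analysis was possible because the labels carry no replicate numbers shared between groups. Depth limits Arntl most, at 24 counts in WT saline replicate 1.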
